A study of Mus musculus with 12 samples.

Results

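The nuclear genes of oxidative phosphorylation were read in whole mouse cochleae of Dusp1-/- mice (KO) and wild-type mice (WT). All genes of the deposited FPKM table whose symbol starts with Nduf (without the Ndufaf assembly factors), Uqcr, Atp5 or Cox followed by a digit from 4 to 8 were taken, together with Sdha, Sdhb, Sdhc, Sdhd and Cycs. The rule uses names and no measured value, and it took 86 of 23949 genes. FPKM are fragments per kilobase of transcript, scaled to the mapped reads of each library, so levels of different genes can be set side by side. Genes entered the tests if their FPKM averaged 0.5 or more across all 12 libraries, which held for 84 of the 86 members and for 16277 genes in all. By complex, 36 tested members belong to complex I, 4 to complex II, 8 to complex III, 18 to complex IV and 15 to ATP synthase (complex V), and 1 is cytochrome c. Atp5s and Atp5sl, a further 2, carry the prefix without being subunits of the synthase, and Ndufa4 and Ndufa4l2 were counted with complex IV, where their proteins are now placed.

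Each library was made from polyA RNA of cochleae freed of the vestibule, and 3 libraries stand in each of 4 groups: KO at 8 months (F5, F6 and F27), WT at 8 months (F1, F10 and F12), KO at 5 months (E7, F18 and F19) and WT at 5 months (E1, E3 and E4). The codes are those of the labels, the sources used here give no meaning for their letters, and all WT libraries with E are of 5 months and all with F of 8 months, so letter and age cannot be told apart in WT. At 5 months every WT library has E, while in KO only E7 does and F18 and F19 have F, so letter and genotype are partly mixed there. In KO at 8 months every library has F. Every mouse is of the mixed strain 129S2/SvPas:C57BL/6, the KO carries Dusp1-/- in the whole animal rather than in 1 cell type, and all cells of the cochlea were read together. Beyond the codes, no label says that each library is from a separate animal, so p-values measure the spread between these libraries, which may be technical. In whole tissue, fewer cells of a type and less RNA per cell cannot be told apart. The study set KO against WT cochleae to ask how gene programs differ without DUSP1, a phosphatase of MAP kinases.

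Oxidative phosphorylation passes electrons from NADH and succinate along complexes I to IV of the inner mitochondrial membrane to oxygen, and complex V uses the proton gradient so built to make ATP. Most subunits are encoded in the nucleus and are made together with those encoded by mitochondrial DNA. Several complex IV subunits exist as an isoform of most cells and an isoform of muscle, brown fat, lung or testis. In the cochlea the demand for ATP is high in the stria vascularis, whose pumps maintain the endocochlear potential, and in hair cells and spiral ganglion neurons. Brown fat is rich in mitochondria, and there Ucp1 lets protons return without making ATP.

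Dusp1 itself stood at 55.6, 73.7 and 57.1 FPKM in KO, against 43.0, 38.3 and 38.6 FPKM in WT, at 8 months, and at 61.9, 81.5 and 75.3 FPKM in KO, against 60.8, 47.6 and 29.5 FPKM in WT, at 5 months. Within each age it was thus higher in every library labelled KO than in any labelled WT. FPKM of a whole gene do not show which allele was read and so do not check the labels, and KO and WT stand here for libraries so labelled. FPKM add up to 501193 to 583700 per library, and read numbers are not given, so the depth is unknown. The 19 cochlear markers listed for this purpose, such as Otof, Tecta, Coch and Slc26a5, were all found and tested, with a summed level of 4363 to 6452 FPKM per library. Neutrophil markers, of which 16 were tested, summed to 908.7 to 16958 FPKM in KO and 708.6 to 4667 FPKM in WT at 8 months, and to 4191 to 23098 FPKM in KO and 88.5 to 696 FPKM in WT at 5 months. They were highest in E7 and F5.

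Members were abundant. Their median was 207 FPKM over the 12 libraries, against 10.5 FPKM for all tested genes, and 73 of the 84 lay among the top 5% of tested genes, 16 of them among the top 1%. By complex, median levels were 185 FPKM for I, 159 FPKM for II, 367 FPKM for III, 308 FPKM for IV and 363 FPKM for V. The most abundant were Ndufa4 of complex IV (887 FPKM), Atp5b, the catalytic subunit of ATP synthase (879.5 FPKM), Atp5k, a small subunit of its membrane part (876 FPKM), and Cox4i1, the main isoform of subunit 4 (786 FPKM). Within complex I the highest were the accessory subunits Ndufa3 (580.0 FPKM) and Ndufb4 (331 FPKM), and the lowest Ndufa11 (31.7 FPKM). In complex II, Sdha, the flavoprotein that oxidizes succinate, stood at 198 FPKM, Sdhb, its iron-sulfur partner, at 163 FPKM and the membrane anchor Sdhd, the lowest, at 145 FPKM. Complex III ran from Uqcrfs1, the Rieske iron-sulfur protein (120.3 FPKM), to Uqcrb (391 FPKM) and the hinge protein Uqcrh (617 FPKM), and Atp5f1, of the peripheral stalk, was the lowest of complex V (184 FPKM). Only 2 members failed the filter. Cox8c, known from testis, is listed at 0 in all 12 libraries, and Cox7b2, also known from testis, averaged 0.230 FPKM.

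Levels of the members differed together from library to library. Relative to the mean of WT at 5 months, the median member stood, on the log2 scale, at 0.18, 0.46 and 0.089 in KO (F5, F6 and F27) and 0.30, 0.084 and 0.31 in WT (F1, F10 and F12) at 8 months. At 5 months it stood at 0.0014, 0.62 and −0.098 in KO (E7, F18 and F19) and at −0.056, 0.058 and −0.015 in WT (E1, E3 and E4). F18 had the highest value of 61 of the 84 members and F6 of 18, while F19 had the lowest of 43. Over all tested genes F18 was the highest library in 7.69%. Summed over the members, F18 reached 33293 FPKM and F6 28892 FPKM, and the other 10 libraries lay between 19196 and 25888 FPKM. Of the libraries, F1, F6, F12 and F18 had the highest mean level of the fat markers given below. They were the 4 highest for 52 of 84 members (61.9%), against 326 of 16277 tested genes (2.00%). The ratio of highest to lowest library had a median of 1.73 over the tested members and was at least 3 in only 3 of them, Cox6a2, Cox7a1 and Cox8b.

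**Figure D1:**
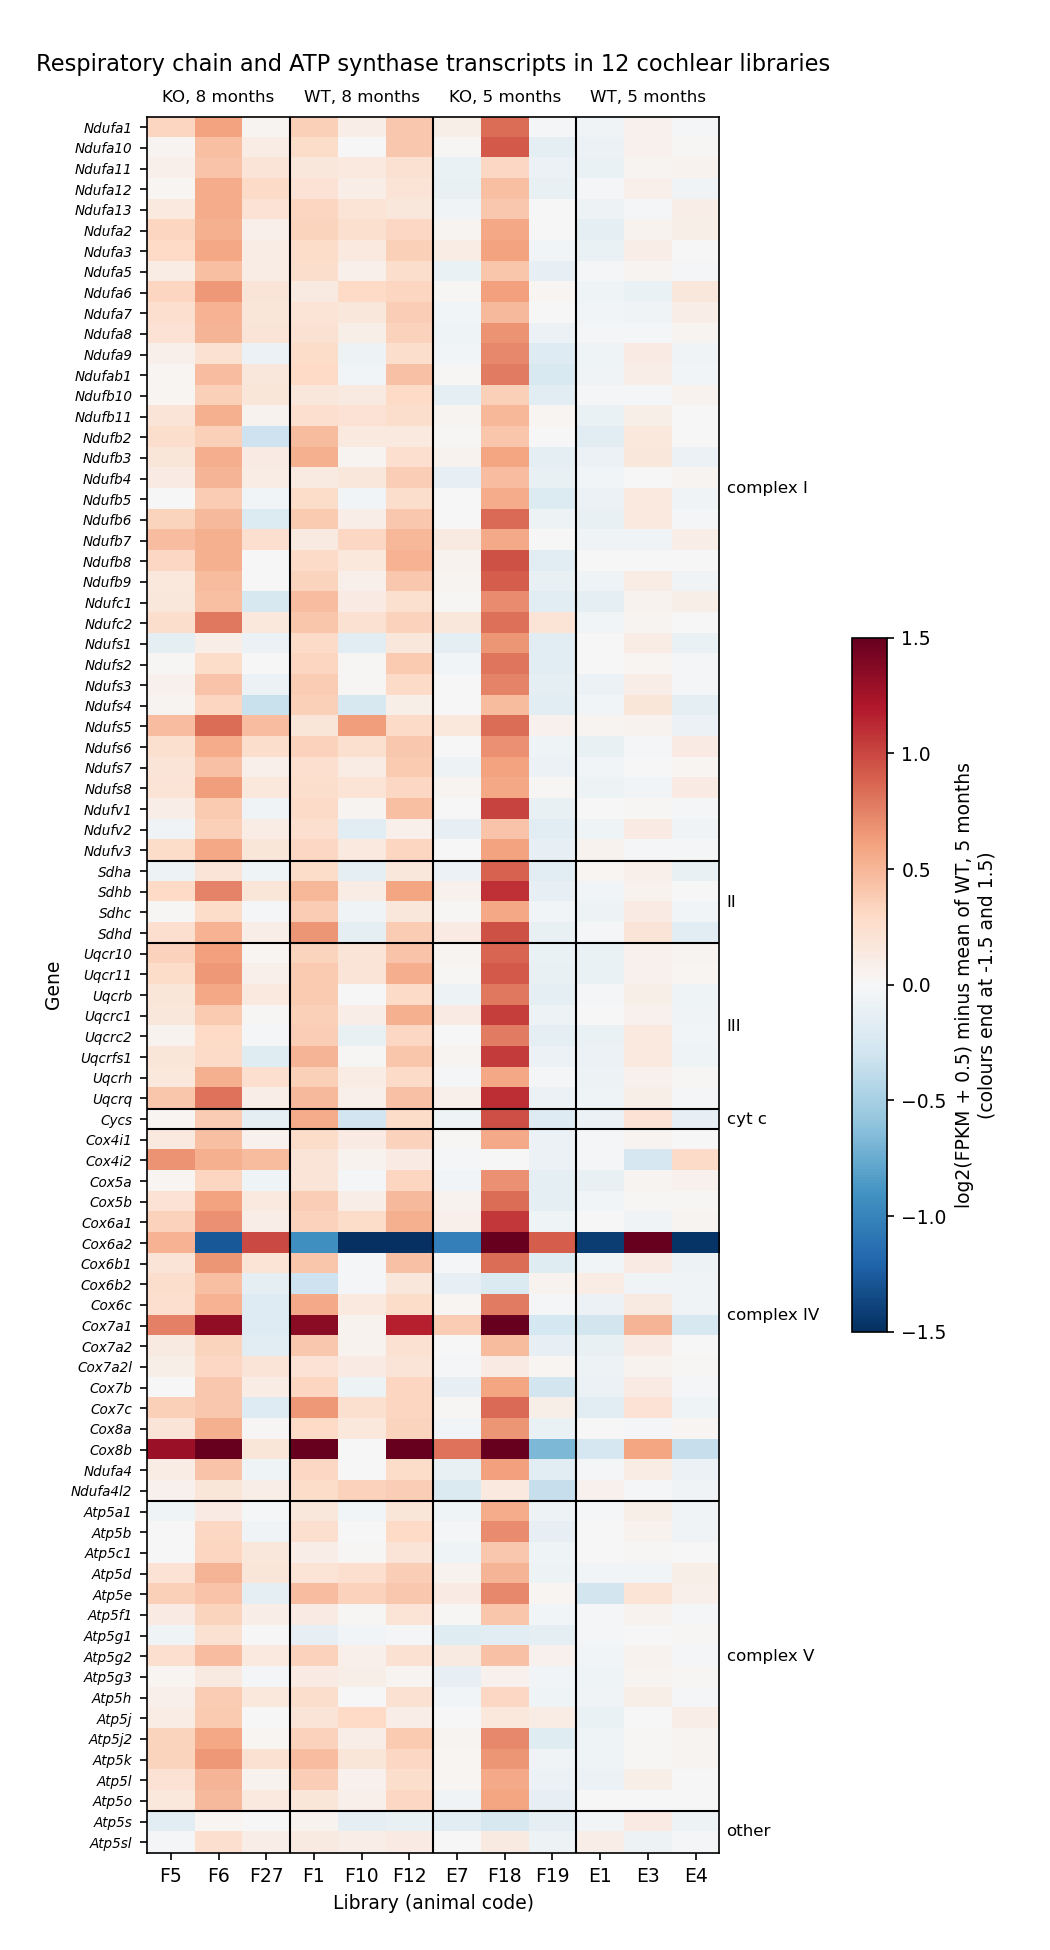
Level of the 84 tested members (rows, by complex) in 12 libraries (columns, by group), as log2(FPKM + 0.5) minus the mean of WT at 5 months; red is higher, blue lower, and colours end at −1.5 and 1.5. F18 is red in nearly every row, with a median of 0.62, followed by F6 with 0.46, and the complex IV isoforms Cox6a2, Cox7a1 and Cox8b stand apart from their neighbours.

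By complex medians, F18 stood highest in complexes II and III (0.92 and 0.90 relative to WT at 5 months), with 0.67 in complex IV, 0.61 in complex I and 0.51 in complex V. F6 had 0.40 in II, 0.56 in III, 0.45 in IV, 0.50 in I and 0.39 in V. Sdhb stood at 159, 216 and 146 FPKM in KO, against 183, 139.8 and 195 FPKM in WT, at 8 months, and at 135, 276 and 118 FPKM in KO, against 125, 133 and 129 FPKM in WT, at 5 months. F18 was the highest and F19 the lowest library. Uqcrh reached 598, 777 and 642 FPKM in KO, against 687, 579.9 and 654 FPKM in WT, at 8 months, and 531, 801 and 527 FPKM in KO, against 508, 563 and 542 FPKM in WT, at 5 months. Cytochrome c (Cycs), the carrier between complexes III and IV, was lower in level, with 69.2, 88.1 and 60.9 FPKM in KO, against 99.6, 55.2 and 81.8 FPKM in WT, at 8 months, and 64.8, 132 and 59.2 FPKM in KO, against 63.6, 78.6 and 61.8 FPKM in WT, at 5 months. At both ages KO and WT overlapped in these. Cox4i1 had 773, 956 and 730.0 FPKM in KO, against 842, 759 and 885 FPKM in WT, at 8 months, and 706, 1030.3 and 653 FPKM in KO, against 681, 717 and 693 FPKM in WT, at 5 months. Atp5b had 805, 992 and 774 FPKM in KO, against 954, 795 and 986 FPKM in WT, at 8 months, and 793, 1315 and 734 FPKM in KO, against 799, 833 and 773 FPKM in WT, at 5 months. Ndufa3 had 615, 743 and 537 FPKM in KO, against 605, 551 and 636 FPKM in WT, at 8 months, and 536, 759.5 and 484 FPKM in KO, against 466, 533 and 496 FPKM in WT, at 5 months. Again F18 held the highest value of each, and the genotypes overlapped at each age. The steadiest member was Atp5g3, another gene of the ring subunit, whose highest library was 1.196 times its lowest.

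Transcripts of fat, Ucp1 of brown fat among them, were high in the same libraries. Ucp1, the uncoupling protein of brown fat, was at 165, 172 and 21.3 FPKM in KO, against 134, 3.99 and 86.8 FPKM in WT at 8 months, and at 56.97, 517 and 0.269 FPKM in KO, against 21.8, 20.5 and 6.34 FPKM in WT at 5 months. F18 was the highest, and the lowest value in each age lay in F10 and F19. All 8 listed fat markers were tested (Ucp1, Cidea, Elovl3, Adipoq, Plin1, Cidec, Lep and Fabp4), and 6 of the 8 had F1, F6, F12 and F18 as their 4 highest libraries. These 4 were picked by the mean log2 level of the same markers, so that count is no separate result. F12 (4.9924) and F5 (4.9923) were nearly tied in it. Summed, the 8 markers reached 1107, 1576 and 192 FPKM in KO and 1348, 141 and 1268 FPKM in WT at 8 months, and 624, 4765 and 54.7 FPKM in KO and 257, 333 and 111 FPKM in WT at 5 months. The 5 libraries with the highest mean level of these markers, F18, F6, F1, F12 and F5, were also the 5 with the highest median member. Leptin was at or below 2.44 FPKM in every library. Not all of the 8 are particular to brown fat, so brown fat markers and brown fat level are names of this list only. The part of fat tissue in the members' levels was not tested, beyond the fit with the marker level as a covariate that is given beside the comparisons.

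Skeletal muscle transcripts followed another order. Acta1, the actin of skeletal muscle, was at 39.9, 3.42 and 23.8 FPKM in KO, against 9.32, 1.47 and 0.895 FPKM in WT at 8 months, and at 0.641, 188 and 26.97 FPKM in KO, against 4.04, 228 and 3.92 FPKM in WT at 5 months. It was high in F18 and E3 and low in F6 and F12, where members were high. Of the 24 listed muscle genes 22 were tested. The sum of the 21 without Pvalb, which hair cells and neurons also express, was 86.8 to 348 FPKM in KO and 66.1 to 114 FPKM in WT at 8 months, and 48.3 to 1457 FPKM in KO and 78.4 to 2022 FPKM in WT at 5 months. Pvalb alone was at 272 to 413 FPKM in KO and 248 to 330 FPKM in WT at 8 months, and at 257 to 399 FPKM in KO and 384 to 509 FPKM in WT at 5 months. None of the 22 had F1, F6, F12 and F18 as its 4 highest libraries.

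**Figure D2:**
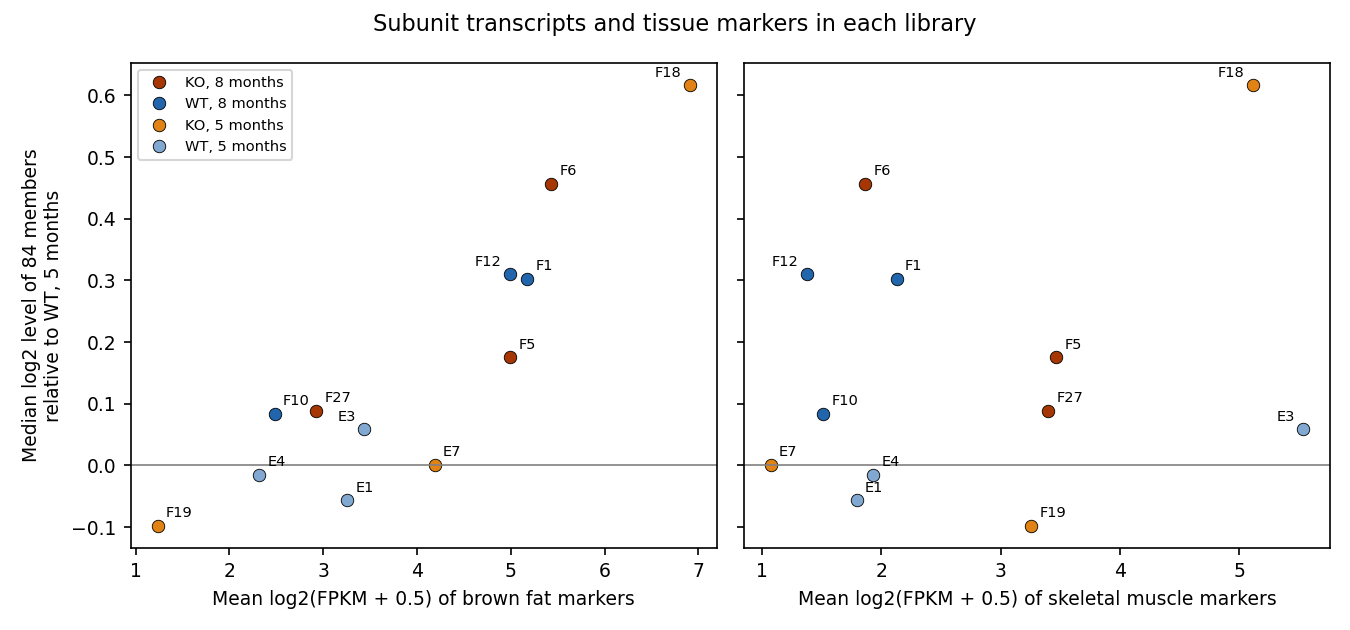
Median log2 level of the 84 tested members relative to WT at 5 months (y axis) against the mean log2(FPKM + 0.5) of 8 brown fat markers (left, x axis) and 22 skeletal muscle markers (right, x axis), 1 point per library, coloured by group. F18, F6, F1, F12 and F5 are at the upper right of the brown fat panel, while E3, with the highest muscle level, has a median member of 0.058.

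The tissue isoforms of complex IV went with 1 or the other of these marker sets. Cox8b, a muscle and brown fat isoform of subunit 8, was at 357, 509.6 and 165 FPKM in KO, against 465, 144 and 519 FPKM in WT at 8 months. At 5 months it was at 257, 1066 and 90.9 FPKM in KO, against 123, 221 and 114 FPKM in WT. The groups overlapped at each age, and F18 held the highest and F19 the lowest value of all libraries. The ratio of Cox8b to its partner of most cells, Cox8a, spanned 0.157 in F19 to 1.09 in F18. Cox7a1, the muscle and brown fat isoform of subunit 7a, was at 148, 220.4 and 76.7 FPKM in KO, against 224, 90.97 and 197 FPKM in WT at 8 months. At 5 months it was at 114, 412 and 72.7 FPKM in KO, against 72.6, 125 and 74.2 FPKM in WT, and its ratio to Cox7a2 spanned 0.291 in E4 to 1.16 in F18. Both were high in the libraries high in Ucp1.

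Cox6a2, the isoform of subunit 6a known from striated muscle, had another pattern. It was at 6.74, 1.59 and 9.48 FPKM in KO, against 2.17, 0.427 and 1.05 FPKM in WT at 8 months, and at 1.98, 27.9 and 8.99 FPKM in KO, against 1.38, 36.8 and 1.32 FPKM in WT at 5 months. E3 and F18 were the highest, as for Acta1, and the ratio to Cox6a1 spanned 0.000674 in F10 to 0.0727 in E3. Over the 12 libraries, log2 Cox8b correlated with the mean brown fat level (Pearson's r = 0.973, permutation p = 1e-05, the smallest that 100000 permutations can give, adjusted 6e-05, with Spearman's rho = 0.958, permutation p = 1e-05) and log2 Cox7a1 likewise (r = 0.935, permutation p = 2e-05, adjusted 6e-05, with rho = 0.909, permutation p = 0.00013). For Cox6a2 the correlation was with the muscle level (r = 0.961, permutation p = 4e-05, adjusted 8e-05, with rho = 0.846, permutation p = 0.00090). Without the 2 libraries farthest from the median marker level these were 0.956, 0.919 and 0.897, and within genotype they were 0.991, 0.941 and 0.962 in KO and 0.950, 0.927 and 0.986 in WT. The other 3 relations had r between 0.160 and 0.262, with adjusted permutation p of 0.62 each, out of 6 computed. Both values of a point come from the same library, and the 6 relations were chosen after the values were seen. The adjustment covers only these 6, and the permutations shuffled libraries across groups. Between groups, the ratios of Cox6a2, Cox7a1 and Cox8b to their partners had exact permutation p-values of 0.2 or more in every comparison.

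**Figure D3:**
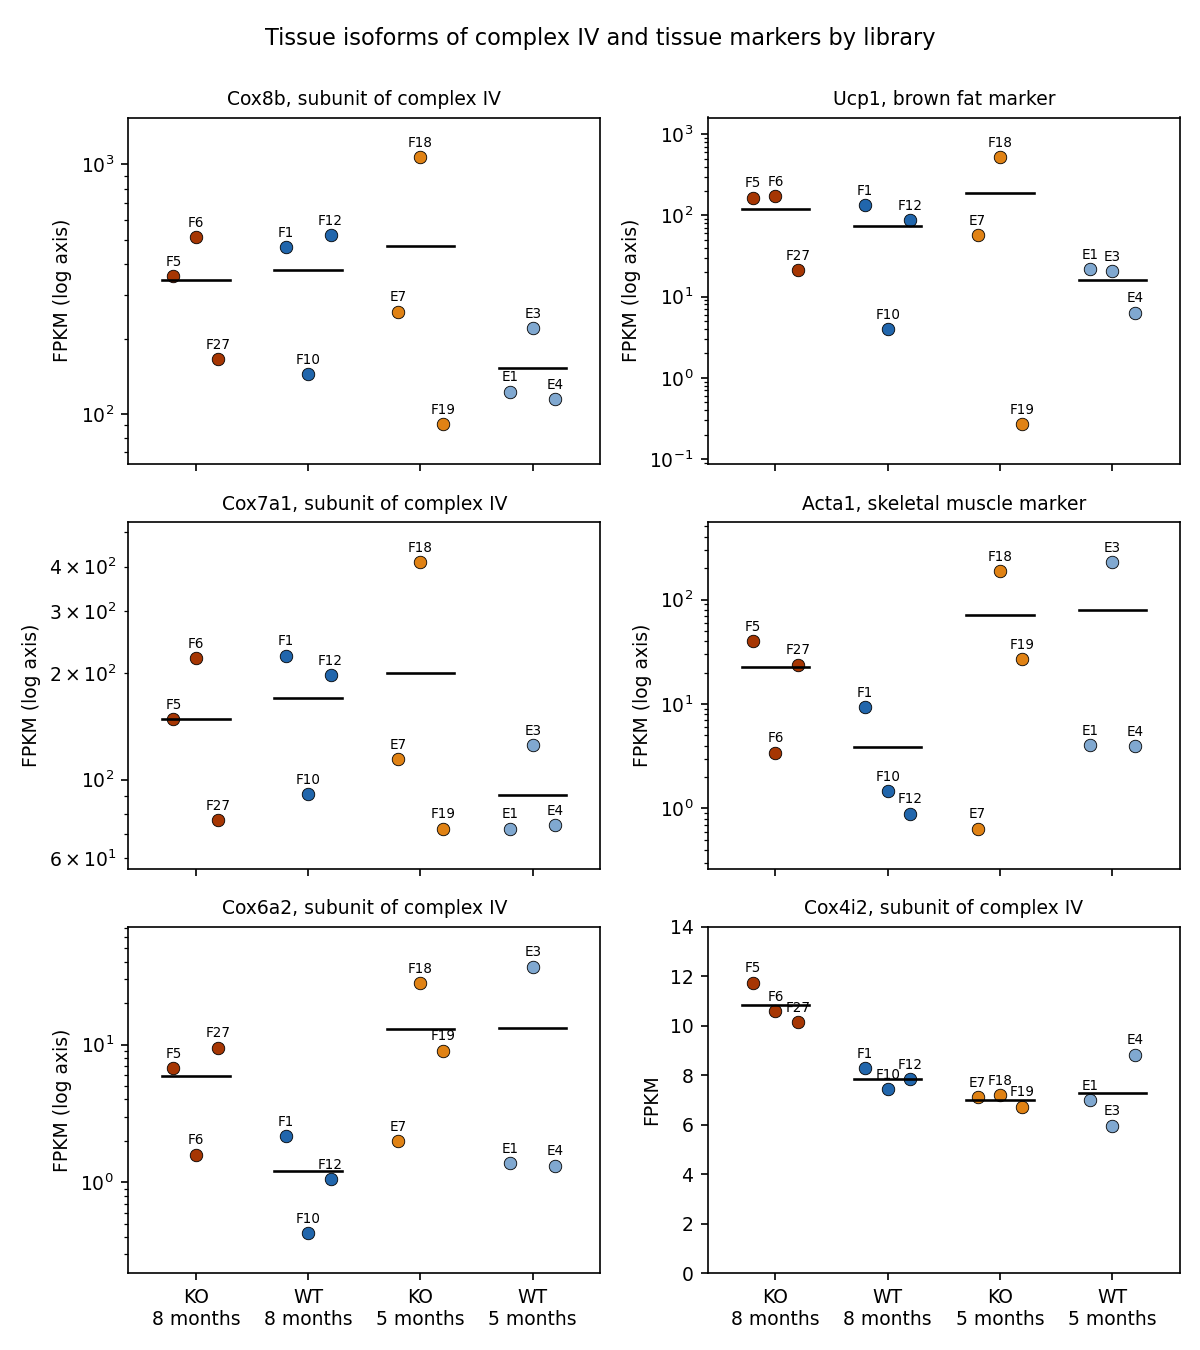
FPKM of Cox8b, Cox7a1 and Cox6a2 with Ucp1 and Acta1 (log axes) and of Cox4i2 (linear axis from 0) in each library, by group; points are libraries with their codes and bars are group means. Cox8b, Cox7a1 and Ucp1 are highest in F18 (1066, 412 and 517 FPKM), Cox6a2 and Acta1 are highest in E3 and next in F18, and Cox4i2 lies above 10 FPKM only in KO at 8 months.

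The promoters of the isoforms that were high with Ucp1 hold fewer CpG dinucleotides than those of their partners, so these are shown, after that of Sdhd, which with Ndufb10 holds the most kinds of searched motif (3) among members. Windows run from 250 bases before to 50 after the start of the gene and are RefSeq sequences of GRCm38.p6, where 71 of the 86 members have a window. Capitals mark matches to GCGCANGCG (NRF1), CCGGAAG (the ETS core bound by GABPA), AANATGGC (YY1), TNAAGGTCA (ERR) or CAGCTG (an E-box), with N any base, searched on both strands. The windows lie at chr9:50603800-50604099 on the minus strand for Sdhd, chr7:30183921-30184220 on the plus strand for Cox7a1, chr9:79759804-79760103 on the minus strand for Cox7a2, chr7:140900397-140900696 on the minus strand for Cox8b and chr19:7217567-7217866 on the minus strand for Cox8a.
Sdhd: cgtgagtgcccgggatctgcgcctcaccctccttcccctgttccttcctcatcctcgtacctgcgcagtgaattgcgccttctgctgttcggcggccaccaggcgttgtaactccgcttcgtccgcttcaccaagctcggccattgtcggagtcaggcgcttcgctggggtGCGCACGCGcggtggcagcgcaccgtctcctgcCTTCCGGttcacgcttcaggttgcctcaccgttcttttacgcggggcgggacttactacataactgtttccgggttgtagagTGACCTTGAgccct
Cox7a1: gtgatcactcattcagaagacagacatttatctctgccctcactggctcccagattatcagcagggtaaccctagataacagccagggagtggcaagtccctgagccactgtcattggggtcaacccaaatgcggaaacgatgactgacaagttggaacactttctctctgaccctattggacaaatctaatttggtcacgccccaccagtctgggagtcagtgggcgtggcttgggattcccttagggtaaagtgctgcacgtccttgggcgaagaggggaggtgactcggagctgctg
Cox7a2: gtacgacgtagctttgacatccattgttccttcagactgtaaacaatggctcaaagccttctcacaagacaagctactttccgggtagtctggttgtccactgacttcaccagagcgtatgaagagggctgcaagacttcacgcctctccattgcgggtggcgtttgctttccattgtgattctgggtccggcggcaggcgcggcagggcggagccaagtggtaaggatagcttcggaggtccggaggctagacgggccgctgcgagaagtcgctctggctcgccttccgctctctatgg
Cox8b: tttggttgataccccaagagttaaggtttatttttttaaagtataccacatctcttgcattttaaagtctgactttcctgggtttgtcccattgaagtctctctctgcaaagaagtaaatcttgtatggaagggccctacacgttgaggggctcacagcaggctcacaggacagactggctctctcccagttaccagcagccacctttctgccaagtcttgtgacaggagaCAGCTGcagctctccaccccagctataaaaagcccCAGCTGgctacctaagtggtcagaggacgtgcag
Cox8a: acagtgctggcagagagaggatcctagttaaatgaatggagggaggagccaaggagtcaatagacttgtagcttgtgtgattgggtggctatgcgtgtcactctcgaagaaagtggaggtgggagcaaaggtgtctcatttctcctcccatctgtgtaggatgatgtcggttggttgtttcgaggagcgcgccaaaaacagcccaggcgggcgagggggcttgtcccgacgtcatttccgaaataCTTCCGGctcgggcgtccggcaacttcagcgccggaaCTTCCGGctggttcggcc

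The Sdhd window holds an NRF1, an ETS and an ERR match and 29 CpG dinucleotides. Cox8b holds 2 E-box matches and 2 CpG, against 2 ETS matches and 19 CpG in Cox8a. Neither Cox7a1 nor Cox7a2 holds a match, and they have 7 and 20 CpG. The median is 19 CpG over the 77 windows of members and 7 over all 32851 windows. An NRF1 match lies in 22 of 77 member windows (28.6%) and in 6.25% of all windows, an ETS match in 16 (20.8%) and in 8.86%, a YY1 match in 19 (24.7%) and in 6.05%, and an ERR match in 3 (3.90%) and in 1.28%. The E-box lies in 6 (7.79%) and in 16.3% of all. The ETS and YY1 letters can share bases (AAG), but matches of different motifs shared bases in 0 of the 77 member windows. A match describes the letters in the window. Which factor was bound there was not measured.

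At 5 months most members, in every complex, were somewhat higher in KO than in WT on average, with 1 of the 3 KO libraries far above the other KO libraries. No member passed an adjusted p of 0.05 (limma with Benjamini-Hochberg adjustment over 16277 genes, of which 11, 0.0676%, passed), and the smallest adjusted p of a member was 0.264. By direction, 78 of the 84 members had a change above 0, against 44.7% of all tested genes, and their median change was 0.19 on the log2 scale, against −0.027. All 36 members of complex I were above 0 (median 0.19), as were the 4 of complex II (0.27) and the 8 of complex III (0.27), with 15 of 18 in complex IV (0.17) and 13 of 15 in complex V (0.14). Groups overlapped for most. KO was above WT in every library for 3 members and below for 2, where 11.3% and 13.8% of all tested genes were so. At an unadjusted p under 0.05, 0 members were higher and 2 lower, where 8.23% and 9.92% of all tested genes were.

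The library was F18. Without it the median change was −0.049 and 20 of 84 members were above 0, and KO lay wholly above WT for 3 members and wholly below for 19 (22.6%), where 18.5% and 17.5% of all tested genes did. Without E7 the median was 0.27 and without F19 it was 0.31, each with 78 or more above 0. Leaving out each library of WT at 5 months gave 0.15 to 0.21. All 16 neutrophil markers also lay wholly above WT in this comparison, and without E7 and F5, the libraries highest in them, the median of the members was 0.27. The 8 brown fat markers had a median change of 1.20. With their mean level as a covariate the members' median was 0.045, with quantile scaling 0.078 and with array weights 0.044. Without both F18 and E3 it was −0.026. The covariate and the joint removal of F18 and E3 were chosen after the data were seen.

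The members with the largest positive moderated t at 5 months were Ndufc2, Atp5g2, Ndufs5, Ndufb7 and Uqcrc1. Ndufc2, an accessory subunit of the membrane arm of complex I (chr7:104548513-104556310, mm9), was at 174, 274 and 177 FPKM in KO, against 150.2, 158 and 155 FPKM in WT. The change was 0.40 ± 0.19 (adjusted p = 0.297), and every KO library lay above every WT library. Atp5g2, 1 of 3 genes that encode the same mature ring subunit of ATP synthase, was at 278, 343 and 264 FPKM in KO, against 246, 262 and 249.1 FPKM in WT (0.22 ± 0.12, adjusted p = 0.35), and E1, E3 and E4 again all lay below, the nearest pair being F19 and E3. Ndufs5, another accessory subunit of complex I, was at 76.3, 122 and 71.2 FPKM in KO, against 70.2, 70.6 and 63.9 FPKM in WT (0.35 ± 0.20, adjusted p = 0.371), also without overlap. Ndufb7, of the membrane arm, differed by 0.23 ± 0.15, and Uqcrc1, a core protein of complex III, by 0.36 ± 0.24, and in these the groups overlapped. For groups that do not overlap the exact permutation p is 0.1, the smallest that 3 against 3 libraries can give.

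Lower in KO at 5 months by t were Atp5g1, Atp5s, Ndufa4l2, Cox6b2 and Atp5g3. Atp5g1, a further gene of the ring subunit (chr11:95934107-95937008, mm9), was at 189.8, 193 and 194 FPKM in KO, against 212, 216 and 219 FPKM in WT, a change of −0.17 ± 0.072 (adjusted p = 0.264) with no overlap. Atp5s was at 14.6, 13.9 and 15.05 FPKM in KO, against 16.1, 17.95 and 15.6 FPKM in WT (−0.18 ± 0.080, adjusted p = 0.269), also with no overlap. These are the 2 members at an unadjusted p under 0.05 in this comparison. The others overlapped, with changes of −0.14 ± 0.12 for Ndufa4l2, −0.095 ± 0.16 for Cox6b2 and −0.034 ± 0.070 for Atp5g3. Of the ring subunit genes, Atp5g1 over Atp5g3 was 0.387, 0.347 and 0.376 in KO and 0.416, 0.395 and 0.404 in WT, and Atp5g2 over Atp5g3 was 0.567, 0.618 and 0.510 in KO and 0.482, 0.479 and 0.460 in WT. Both ratios separated the groups at that age, in opposite directions (exact permutation p = 0.1 each). At 8 months Atp5g1 over Atp5g3 was 0.383, 0.430 and 0.409 in KO and 0.341, 0.373 and 0.385 in WT (exact permutation p = 0.2), and Atp5g2 over Atp5g3 was 0.553, 0.594 and 0.530 in KO and 0.552, 0.470 and 0.536 in WT (exact permutation p = 0.4). There the groups overlapped, and the mean of the first ratio was higher in KO, opposite to 5 months. Reads of these genes can be shared with further copies in the genome, of which Atp5g2 has 3 and Atp5g1 has 2.

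At 8 months members were as often higher as lower in KO. Of 84 members 42 had a change above 0, where 48.3% of all tested genes did, and the median was 0.0001, against −0.0040 over all. None passed the adjusted threshold, as did 2 of all tested genes (0.0123%), and the smallest adjusted p of a member was 0.833. By complex the medians were 0.015 for I, −0.046 for II, −0.017 for III, −0.019 for IV and 0.034 for V. Only Cox4i2 lay wholly above WT and only Ndufa4l2 wholly below it, where 4.10% and 6.18% of all tested genes did. Cox4i2 was also the 1 member higher at an unadjusted p under 0.05, with 0 lower, where 2.21% and 2.97% of all tested genes were. Without F6 the median was −0.12 with 7 members above 0, and without F10 it was −0.060 with 23. Without F27 it was 0.087 with 67, and leaving out F1, F12 or F5 gave 0.026 to 0.046.

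Cox4i2, the isoform of subunit 4 found in lung and in vessel walls, had the largest positive moderated t of the members at 8 months. It lies at chr2:152579909-152590773 (mm9) and was at 11.74, 10.6 and 10.1 FPKM in KO, against 8.29, 7.43 and 7.84 FPKM in WT, a change of 0.44 ± 0.12 (adjusted p = 0.833, exact permutation p = 0.1). At 5 months it was at 7.10, 7.18 and 6.72 FPKM in KO, against 6.99, 5.96 and 8.83 FPKM in WT (−0.033 ± 0.12), with overlap. Its ratio to Cox4i1 at 8 months was 0.0152, 0.0111 and 0.0139 in KO and 0.00984, 0.00978 and 0.00886 in WT, again without overlap (exact permutation p = 0.1). The 8 listed pericyte markers, of the vessel wall cells, summed to 91.7 to 119 FPKM in KO and 108 to 122 FPKM in WT at that age.

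Ndufa4l2, a paralog of Ndufa4 known as a hypoxia target, was at 5.05, 5.53 and 5.17 FPKM in KO, against 5.94, 6.25 and 6.35 FPKM in WT at 8 months (−0.22 ± 0.12, adjusted p = 0.963). KO lay below WT in every library, the highest KO value being in F6. Next by positive t were Atp5g1 (0.12 ± 0.072), Cox6b2, the testis isoform of subunit 6b (0.24 ± 0.16), Cox6a2 (1.77 ± 1.22) and Ndufs5 (0.22 ± 0.20), and by negative t Atp5e, of the central stalk of ATP synthase (−0.19 ± 0.20), Cox7c (−0.22 ± 0.24), Ndufb2 (−0.15 ± 0.18) and Uqcrfs1 (−0.21 ± 0.27). In all of these the groups overlapped. Muscle markers were also higher in KO on average at 8 months, with a median change of 1.22 over the 22 tested and 0 past the adjusted threshold. Relative to WT at 5 months, their median was 0.41, −1.17 and 0.31 in KO (F5, F6 and F27). In WT it was −0.84, −1.81 and −1.55 (F1, F10 and F12), so F6 lay below F1. KO lay wholly above WT for 3 of the 22 and wholly below for 0, where 4.10% and 6.18% of all tested genes did. Cox6b2 was at 41.7, 47.3 and 31.2 FPKM in KO, against 27.8, 34.1 and 39.1 FPKM in WT at 8 months, and at 31.7, 29.7 and 36.04 FPKM in KO, against 37.3, 33.2 and 33.5 FPKM in WT at 5 months. None of the 8 listed testis markers passed the filter.

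Averaged over both ages, 77 of 84 members were above 0 in KO against WT (45.6% of all tested genes), with a median of 0.089, against −0.016 over all. None passed the adjusted threshold (13 of all tested genes, 0.0799%), and for none did the KO libraries all lie above or below the WT libraries (0.289% and 0.928% of all). At an unadjusted p under 0.05, 1 member was higher and 0 lower, where 7.75% and 9.66% of all tested genes were. By t the first were Cox4i2 (0.20 ± 0.084, adjusted p = 0.267), Ndufs5 (0.29 ± 0.14), Atp5g2 (0.14 ± 0.082), Ndufc2 (0.24 ± 0.13) and Ndufb7 (0.17 ± 0.10). At the other end stood Ndufa4l2 (−0.18 ± 0.082, adjusted p = 0.297), Atp5s (−0.080 ± 0.057), Atp5g3 (−0.034 ± 0.050), Atp5g1 (−0.024 ± 0.051) and Ndufs1, a core subunit of complex I (−0.014 ± 0.14). Without F18 the median was −0.025 with 27 members above 0, without F6 it was 0.029 with 56 and without F10 it was 0.054 with 63. With quantile scaling it was 0.012 with 49 above 0, with the brown fat covariate 0.0072 with 46 and with array weights 0.011 with 48. The genotype difference at 8 months minus that at 5 months was above 0 for 8 of 84 members, where 52.6% of all tested genes were, with a median of −0.17 (0.013 over all). Without F18 the median was 0.038, with 58 above 0. No member passed in it, where 1 of all tested genes did (0.00614%), and the smallest adjusted p was 0.876. Cox4i2 (0.47 ± 0.17) and Atp5g1 (0.28 ± 0.10) were the 2 members at an unadjusted p under 0.05, both above 0, where 3.02% of all tested genes were above and 1.66% below 0 at that level.

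The 3 members within 10 Mb of Dusp1 on chromosome 17, Ndufa7, Ndufb10 and Ndufv3, all of complex I, gave no separation of the genotypes at either age. Ndufa7 was at 246, 297 and 234 FPKM in KO, against 239, 232 and 266 FPKM in WT at 8 months, and at 200.1, 289 and 207 FPKM in KO, against 199.9, 198 and 222 FPKM in WT at 5 months. Averaged over ages the changes were 0.11 ± 0.099, 0.00074 ± 0.096 for Ndufb10 and 0.12 ± 0.12 for Ndufv3, with adjusted p of 0.594, 0.999 and 0.629.

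**Figure D4:**
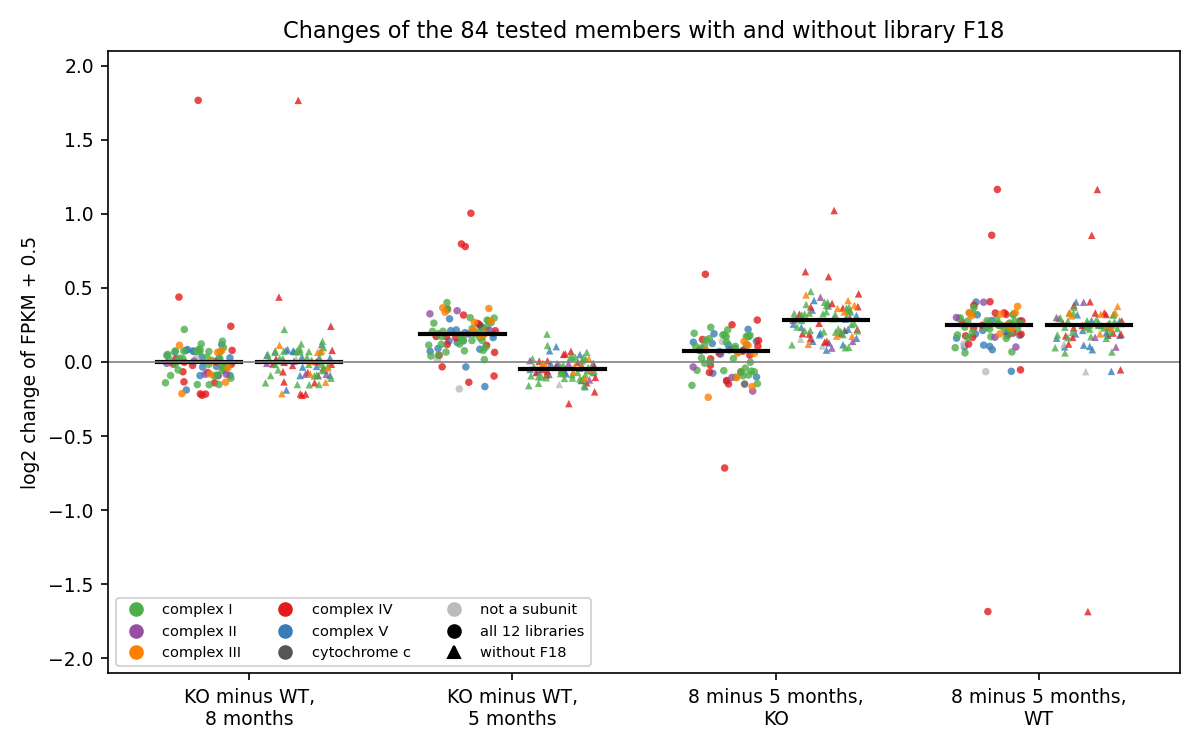
Log2 change of FPKM + 0.5 of the 84 tested members (y axis) in 4 comparisons (x axis) with all libraries (circles) and without F18 (triangles), coloured by complex; bars are medians. At 5 months the median KO minus WT is 0.19 with F18 and −0.049 without it, and in KO the median of 8 minus 5 months is 0.075 with F18 and 0.29 without it.

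The age comparisons use the same libraries again, so their values stand beside the genotype comparisons and add no independent evidence. In WT, members were higher at 8 than at 5 months: 80 of 84 had a change above 0 (53.8% of all tested genes), with a median of 0.25, against 0.018 over all. All 36 of complex I, 4 of complex II and 8 of complex III were above 0, with medians of 0.25, 0.23 and 0.32, and complexes IV and V had 0.26 and 0.19. Every 8-month library lay above every 5-month library for 43 members, where 10.3% of all tested genes did so, and below for 1 (8.81% of all). None passed the adjusted threshold, as did 2 genes in all (0.0123%), and the smallest adjusted p of a member was 0.631. At an unadjusted p under 0.05, 2 members were higher and 0 lower, where 4.28% and 3.54% of all tested genes were. That fit shares its spread over all 4 groups, F18 included. Without F18, 27 members were higher at that level (5.15% of all), and 43 where only the compared groups were fitted (6.92% of all). The direction did not hang on a single library, since the median lay between 0.20 and 0.32 when each was left out, and 44 to 74 members then did not overlap upward when a WT library was left out, where 13.8% to 18.8% of all tested genes did. The 8 brown fat markers had a median change of 1.29 in the same comparison. With their level as a covariate the members' median was 0.098 with 73 members above 0, and with quantile scaling 0.14 with 76.

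By t the first members in WT were Ndufa4l2, Cox7a2l, Ndufb7, Atp5e and Atp5d. Ndufa4l2 was at 5.94, 6.25 and 6.35 FPKM at 8 months and 5.04, 4.77 and 4.64 FPKM at 5 months (0.33 ± 0.12, adjusted p = 0.631). Cox7a2l, linked to supercomplexes of complexes III and IV, was at 236, 220.4 and 233 FPKM at 8 months and 193, 211 and 206 FPKM at 5 months (0.18 ± 0.071). In both, the ages did not overlap, nor did they in Ndufb7, at 186, 210.2 and 239 FPKM at 8 months and 163, 163 and 181 FPKM at 5 months (0.32 ± 0.15). Atp5e was at 444, 408 and 425 FPKM at 8 months and 266, 369 and 339 FPKM at 5 months (0.40 ± 0.20), and Atp5d, another subunit of the central stalk, at 266, 274 and 299 FPKM at 8 months and 223, 223 and 245 FPKM at 5 months (0.28 ± 0.14). Again neither overlapped. Negative were Cox6a2 (−1.68 ± 1.22), Atp5g1 (−0.063 ± 0.072), Atp5s (−0.065 ± 0.080) and Cox6b2 (−0.053 ± 0.16), and the next by t, Ndufs4 (0.067 ± 0.21), was above 0. Atp5g1 was the member wholly below, at 198, 211 and 212 FPKM at 8 months and 212, 216 and 219 FPKM at 5 months.

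In KO, 54 of 84 members were above 0 at 8 against 5 months (53.2% of all tested genes), with a median of 0.075, against 0.015 over all. None passed (0 of all tested genes did), with a smallest adjusted p of 0.289, and 2 members, Cox4i2 and Atp5g1, lay wholly above and 0 wholly below, where 11.1% and 4.60% of all did. The same 2 were at an unadjusted p under 0.05, with 0 lower, where 8.83% and 3.75% of all tested genes were. Cox4i2 was at 11.74, 10.6 and 10.1 FPKM at 8 months and 7.10, 7.18 and 6.72 FPKM at 5 months (0.59 ± 0.12, adjusted p = 0.289). Atp5g1 was at 207, 252 and 215 FPKM at 8 months and 189.8, 193 and 194 FPKM at 5 months (0.22 ± 0.072, adjusted p = 0.331). Next were Ndufa4l2 (0.25 ± 0.12), Cox7a2l (0.15 ± 0.071) and Cox6b2 (0.28 ± 0.16), and at the other end Uqcrfs1 (−0.24 ± 0.27), Atp5a1, the other large subunit of the catalytic head (−0.13 ± 0.15), Sdha (−0.20 ± 0.24), Ndufs1 (−0.16 ± 0.20) and Uqcrc1 (−0.17 ± 0.24), all with overlap. Without F18 all 84 members were above 0, with a median of 0.29 (0.0071 over all), and 49 (58.3%) did not overlap, where 16.4% of all tested genes did so upward. Without F19, F6 or E7 the median was −0.066, −0.048 and −0.015, and with quantile scaling −0.0034 with 42 above 0. Without F27 it was 0.16 with 70 above 0, and with array weights 0.20 with 79.

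Genes that work beside the subunits gave similar library patterns in part. The 17 enzymes of the citric acid cycle and pyruvate dehydrogenase were above 0 in all 17 cases at 5 months in KO against WT (median 0.32, 0 passed), with 1 of 17 above 0 at 8 months (−0.081), and 15 of the 17 had F1, F6, F12 and F18 as their 4 highest libraries. They summed to 1733, 2131 and 1611 FPKM in KO, against 2150.1, 1509 and 2200 FPKM in WT, at 8 months, and to 1654, 3525 and 1408 FPKM in KO, against 1604, 1700.3 and 1524 FPKM in WT, at 5 months, so that F18 stood far above the rest. The 46 assembly factors had medians of −0.040 at 8 months and 0.054 at 5 months in KO against WT, and the 14 genes of import, inner membrane structure and mitochondrial DNA −0.028 and 0.13. The 18 tested carriers and related proteins had medians of −0.024 and 0.088. That list also holds subunits that the name rule did not take, namely Cyc1 of complex III and Usmg5 and 2010107E04Rik of complex V. Of other cell types, median changes in KO against WT at 8 and at 5 months were −0.13 and 2.04 for B cells, 0.24 and 1.81 for red cells, −0.085 and −0.19 for neurons, −0.22 and −0.72 for brainstem glia and −0.034 and −0.071 for the cochlear markers. No gene of these lists passed the adjusted threshold in any comparison.

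Cytosolic ribosomal protein genes, short and abundant like the members, gave another order of libraries. Of 82 tested cytosolic ones, 75 were above 0 at 8 months and 79 at 5 months in KO against WT, with medians of 0.12 and 0.15, and none had F1, F6, F12 and F18 as its 4 highest libraries. In WT at 8 against 5 months 81 of 82 were above 0, with a median of 0.22. The 77 mitochondrial ribosomal proteins had 0.042 and 0.10 in the genotype comparisons and 0.15 in the age comparison of WT. Of these 77, 13 (16.9%) had F1, F6, F12 and F18 as their 4 highest libraries, against 2.00% of all tested genes. Relative to WT at 5 months, their median was highest in F6, F18, F1, F12 and F5 (0.32, 0.27, 0.17, 0.16 and 0.16), the 5 libraries with the highest median member. Short transcripts as a whole were higher at the later age: in WT the median change was 0.13 in the 4070 tested genes with the shortest exon length (53 to 1672 bases) and −0.091 in the 4068 with the longest (4240 bases or more), and the members' exon length has a median of 686 bases (292 to 3059). In KO against WT the shortest and the longest had 0.048 and −0.058 at 8 months and 0.045 and −0.081 at 5 months. Across the 84 members, which are not independent replicates, Spearman's rho of exon length with change was −0.55 in the age comparison of WT and −0.31 in KO against WT at 5 months. Over all tested genes these were −0.425 and −0.224. In KO against WT at 8 months rho was −0.149 (−0.257 over all), and in the age comparison of KO −0.223 (−0.299 over all). Pearson's r with log2 exon length across members was −0.238 in the age comparison of WT and −0.281 in KO against WT at 5 months. The part of length in the members' changes was not tested.

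Further genomic copies limit single values, and whether they are processed copies was not tested. A further copy of at least 95% identity over at least 50% of the transcript was found in the mm9 genome for 27 members, and Atp5l alone has 10, where the alignment allowed 5 hits per read. Changes of these members are uncertain to that extent.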

How the data were processed

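RNA of 12 cochlear samples in 4 groups of 3 was sequenced as single 50-base reads of stranded polyA libraries. Following the submitters' processing notes and the study's methods, FastQC 0.10.1 served for quality and TopHat2 2.0.10 for alignment to mm9, allowing 2 mismatches and 5 hits, on top of Bowtie 1.0.0, with SAMtools 0.1.19 also named, and the authors deposited FPKM per gene and library from Cufflinks 2.2.1. In 55.3% of the table's values the decimal point was missing or misplaced. It was restored from the group FPKM in the authors' Cuffdiff files, within a relative tolerance of 2e-05, and 2 of 23951 genes (Atxn7l1 and Mecom) could not be read and were left out. Authors' fold changes and p-values, enrichment reports and correlations were not used.

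Genes averaging 0.5 FPKM or more were fitted on the log2(FPKM + 0.5) scale with limma 3.58.1 (R 4.3.3), all 4 groups together and with its trend option, p was adjusted by Benjamini and Hochberg over 16277 genes, and 0.05 was the threshold. No covariate was used. Changes are KO minus WT or 8 minus 5 months, ± is the standard error, and the script was tested on simulated data. Single ratios have exact two-sided permutation tests and correlations 100000 permutations. A change is on the log2(FPKM + 0.5) scale, which understates low genes. FPKM hold no read numbers, so no counting interval is given. Promoters are RefSeq windows, copies were sought with minimap2 2.31-r1302, and Python 3.11.15 was used (pandas 2.3.3, SciPy 1.17.1, NumPy 2.4.6) and Matplotlib 3.10.9 for plots.

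Named were, by rule, any member past the threshold, the 5 first and 5 last by moderated t in each genotype and age comparison, the tissue isoforms with their partners, the 2 most and the least abundant per complex, members within 10 Mb of Dusp1 and those that failed the filter. Markers and related genes came from 16 lists. Members, lists and tests were chosen with earlier results of these data known.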

Additional observations from a re-analysis of the deposited data

How the results depend on the processing

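No member passed an adjusted p of 0.05 in any of 6 comparisons under any of 26 settings, and the smallest adjusted p under any setting was 0.505 for KO against WT at 8 months, 0.156 at 5 months, 0.172 averaged, 0.314 for the difference between ages, 0.155 for 8 against 5 months in KO and 0.299 in WT. Leaving out each library in turn, the median change of members ran from −0.12 to 0.087 at 8 months and from −0.049 (without F18) to 0.31 at 5 months in KO against WT, from −0.025 to 0.16 averaged, from −0.31 to 0.038 for the difference between ages, and for 8 against 5 months from −0.066 to 0.29 in KO and from 0.20 to 0.32 in WT. Unadjusted p under 0.05, higher at 8 than at 5 months, was reached in KO by 2 members (8.83% of all tested genes), 38 without F18 (6.96% of all), 27 without F18 and E3 (6.38% of all) and 6 with array weights (8.23% of all). In WT it was reached by 2 members (4.28% of all tested genes), 27 without F18 (5.15% of all), 12 without F18 and E3 (3.35% of all), 8 with array weights (8.21% of all) and 43 where only the compared groups were fitted (6.92% of all). At 5 months in KO against WT 0 members were higher at that level (8.23% of all tested genes) and 6 without F19 (8.38% of all). Pseudocounts of 0.1 or 1, filters at 0 or 1 FPKM and the fit without a variance trend moved each median by less than 0.01, and the Xist level as a covariate gave 0.21 at 5 months. With quantile scaling 22 of 84 members were above 0 in KO against WT at 8 months and 65 at 5 months, against 42 and 78 with FPKM as deposited.

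No paired analysis was possible because the labels give no replicate numbers, and those used here only follow the order of the samples. With 3 libraries a group the exact test cannot go below 0.1, and the depth of each library is unknown, so counting error and biological spread were not separated. The spread of the median member between libraries of a group had an SD of 0.23, pooled over groups. KO at 5 months weighs on it, with 0.62 in F18 against 0.0014 in E7 and −0.098 in F19. WT libraries lay closer together, from −0.056 to 0.058 at 5 months and from 0.084 to 0.31 at 8 months. The median change was 0.19 in KO against WT at 5 months, 0.0001 at 8 months and 0.25 between ages in WT. FPKM are relative within a library.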
